A study of Mus musculus with 2 samples.

Results

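The mRNAs of 39 detoxification enzymes were followed in primary mouse hepatocytes that carried an adenovirus for β-Gal or for HuR. The genes were chosen by name, though earlier results of these data were known. They are UDP-glucuronosyltransferases, sulfotransferases, glutathione transferases, flavin monooxygenases, epoxide hydrolases, carboxylesterases, and with them Tpmt, Nnmt and Aox3. All 39 were found by gene identifier among the 20505 genes listed in both tables. The cells came from C57BL/6 mice, were freed from the liver by collagenase perfusion, were cultured in medium with 5% serum, and were exposed to virus overnight. The control virus carried β-galactosidase, a bacterial enzyme, and the other carried HuR, an RNA-binding protein whose gene is Elavl1, so both groups were infected cells in culture. Neither the age and sex of the mice nor the number of animals behind each culture is given in the sources used here. Each group was 1 library, so no value below has a replicate and no test between the groups was possible. Values are FPKM, which scale reads to transcript length and library size. Log2 differences are log2((HuR + 1)/(β-Gal + 1)), and a gene was called higher or lower at 2-fold or more on that scale. Folds are plain ratios of FPKM, and the range in parentheses after a fold is its 95% counting interval (exact Clopper-Pearson), which covers counting error only.

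Detoxification in the liver runs in steps. Oxidation or hydrolysis exposes a reactive group, and conjugating enzymes then attach glucuronic acid, sulfate, glutathione or a methyl group, which makes most compounds more soluble and ready for export into bile or blood. Glucuronidation takes place inside the endoplasmic reticulum, sulfation in the cytosol, and glutathione conjugation in the cytosol, mitochondria and membranes. Many of these genes lie in clusters of related copies and are controlled by the nuclear receptors PXR (Nr1i2) and CAR (Nr1i3), the aryl hydrocarbon receptor (Ahr) and NRF2. HuR binds AU-rich and U-rich stretches, mostly in the 3′ end of mRNAs, and is best known for stabilising its targets.

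The implied totals were 18357017 reads with β-Gal and 17671387 reads with HuR. Elavl1 stood at 9.67 FPKM in the former and 4480 FPKM in the latter, which checks the labels. Hepatocyte markers were present in both libraries, with albumin at 25353 and 27642 FPKM and a sum over 7 markers of 31475 and 34570.2 FPKM. One of those markers, the urea cycle gene Cps1, was 2-fold lower by the same rule, at 8.41 and 3.17 FPKM. In bulk RNA, fewer cells of a type and less RNA per cell cannot be told apart.

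As a set, the enzymes differed little in total but differed by family. The glucuronosyltransferases Ugt2b1, Ugt2b5 and Ugt2b35, both flavin monooxygenases, Sult1d1, Gstt3 and Aox3 were lower in the HuR library, the alpha-class and mu-class glutathione transferases and the carboxylesterases lay within 2-fold, and Gstp1 was higher. The 39 mRNAs summed to 4912 FPKM with β-Gal and 4801 FPKM with HuR. Sult1c2 was under 1 FPKM in both libraries, so 38 members were compared. Of these, 8 (21.1%) were at least 2-fold lower, beside 8.31% of the 12905 genes compared, and 1 (2.63%) was at least 2-fold higher, beside 5.35%. Another 23 lay within 1.5-fold, beside 64.5% of all genes. The median log2 difference was -0.12 over the members and -0.17 over all compared genes. The count of lower members depends on the scale: once differences were centred on the median of all genes, 4 members and 660 genes were lower, and Ugt2b1, Ugt2b5, Fmo5 and Aox3 left the call. With a pseudocount of 5 FPKM in place of 1, Ugt2b5 and Ugt2b35 alone kept their call.

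**Figure D1:**
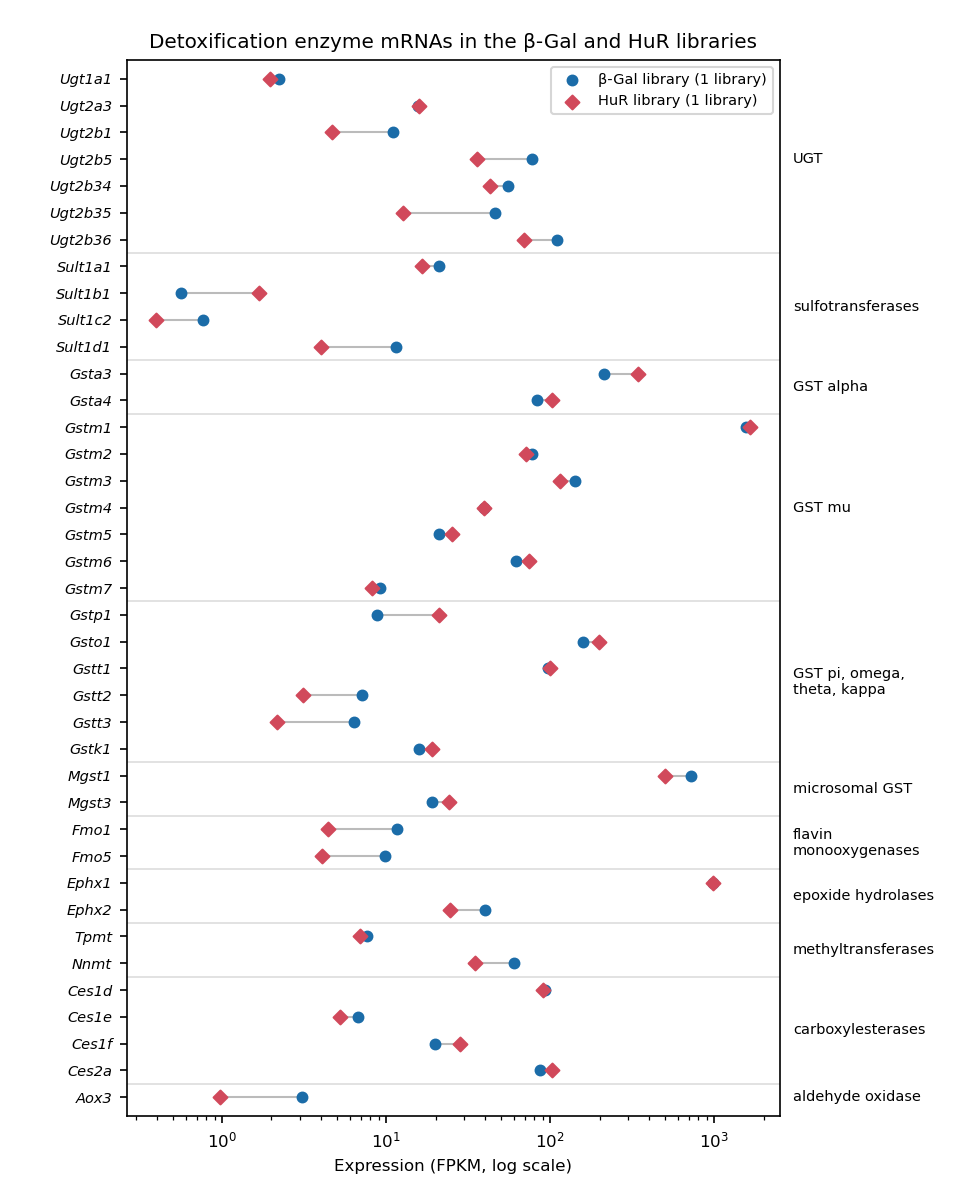
Expression (FPKM, log scale) of the 39 enzyme mRNAs with β-Gal (circles) and with HuR (diamonds), 1 library each, grouped by enzyme family. The 3 most abundant, Gstm1, Ephx1 and Mgst1, reach 1563, 976 and 725 FPKM with β-Gal and 1657, 985 and 501 FPKM with HuR, and the 8 called lower are Ugt2b1, Ugt2b5, Ugt2b35, Sult1d1, Gstt3, Fmo1, Fmo5 and Aox3.

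Most of the lower members were enzymes of low level. Gstm1, Ephx1 and Mgst1 together made up 66.5% of the summed FPKM of the 39 genes with β-Gal and 65.5% with HuR. None of the 6 members with a mean level of 100 FPKM or more was lower, where 1.78% of all genes at that level were. Between 10 and 100 FPKM, 2 of 20 members were lower, beside 7.94% of genes. Under 10 FPKM, 6 of 12 were lower, beside 10% of genes. The rank order of the 38 levels was largely kept, with a Spearman correlation between the libraries of 0.95, as over all compared genes (0.94). These points share their libraries and are not replicates.

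The UDP-glucuronosyltransferases attach glucuronic acid to bilirubin, steroids and drugs. Of 7 members, 3 (42.9%) were at least 2-fold lower in the HuR library and 0 higher, beside 8.31% and 5.35% of all compared genes. The summed FPKM of the 7 went from 317 to 183. Ugt2b35 was farthest below its control value of any member, at 46.2 FPKM (2851 reads) in β-Gal and 12.7 FPKM (756 reads) in HuR, 3.63-fold lower (3.35 to 3.94). Ugt2b1 stood at 11.03 and 4.71 FPKM, 2.34-fold lower (1.995 to 2.76). Ugt2b5, one of the more abundant members of the family, stood at 77.5 and 35.9 FPKM, 2.16-fold lower (2.01 to 2.31). The remaining Ugt2b members were lower by less than 2-fold. Ugt2b36, the most abundant glucuronosyltransferase in the set, stood at 109 and 69.5 FPKM, 1.57-fold lower (1.47 to 1.69), and Ugt2b34 at 55.04 and 42.8 FPKM, 1.29-fold lower (1.22 to 1.35). All 5 Ugt2b mRNAs lay below their control value as deposited, by differing amounts. The direction of Ugt2b34 did not hold with trends in GC content or length removed, where its log2 difference ran from -0.0079 to 0.37, and the calls of Ugt2b1 and Ugt2b5 ended there while that of Ugt2b35 did not. Coding sequences of Ugt2b5, Ugt2b35 and Ugt2b36 are 87.7 to 88.6% identical, yet their log2 differences were -1.09, -1.78 and -0.65. Ugt2a3, a relative encoded in the same cluster, stood at 15.5 and 15.9 FPKM (1.0199-fold, 0.909 to 1.14). Ugt1a1, which conjugates bilirubin, stood at 2.23 and 1.96 FPKM (0.879-fold, 0.64 to 1.20). Its value is uncertain, since 57.2% of its 100-base stretches also occur in other genes, mostly through the exons that all Ugt1a genes have in common. For Ugt2b5 that share was 24.7%, with Ugt2b38 as the main partner, while Ugt2b1, Ugt2b35 and Ugt2b36 shared none.

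Of the 8 lower members, 6 hold the AU-rich pentamer ATTTA in the annotated 3′ UTR, and 1 site of each is shown because HuR is known for binding such stretches. The sites are 25 bases of GENCODE M21 transcripts, 5′ to 3′, with the pentamer in capitals. A match is a description of the letters, not evidence of binding.
Ugt2b1: gcacgtaaggATTTAtgcaagctat
Ugt2b5: cctcattcttATTTAtgaaccacct
Ugt2b35: gtgtgtatatATTTAtatatatata
Sult1d1: ttgccaaattATTTAgattcattat
Fmo5: ggtggtgggcATTTAaactcaggtc
Aox3: aaattttcatATTTAcaaaatattg
In Ugt2b5 and Ugt2b35 the pentamer shown lies within the longer match TATTTAT. The 3′ UTR of Ugt2b35 has 1737 bases and 9 pentamers, that of Sult1d1 1292 bases and 5, and that of Ugt2b1 951 bases and 5. Fmo1 and Gstt3, also lower, have 0, as does Gstp1, the member that was higher. Gstt2, just short of the call, has 4, all within TATTTAT. The pentamer occurred in 6 of 8 lower members (75%) and in 13 of 29 members within 2-fold (44.8%). Among all 10936 compared protein-coding genes with a 3′ UTR, 64.3% held it, and among the 876 of them that were at least 2-fold lower, 78.8% did. Per 1000 bases of 3′ UTR there were 2.70 pentamers in the lower members, 1.81 in those within 2-fold and 1.81 in all genes. In the 876 genes at least 2-fold lower there were 2.19. The 3′ UTRs of the lower members had a median of 824.5 bases, against 305 bases in those within 2-fold. The median was 902.5 bases over all compared protein-coding genes and 1535 bases over those at least 2-fold lower, so the lower members were not long beside either.

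Sulfotransferases transfer sulfate from the donor PAPS to phenols, catechols and hormones. Of 4 members 3 were compared, 1 was at least 2-fold lower and 0 were higher, beside 8.31% and 5.35% of all compared genes. Sult1d1, which acts on catecholamines in mice, stood at 11.5 FPKM (314 reads) in β-Gal and 3.999 FPKM (105 reads) in HuR, 2.88-fold lower (2.30 to 3.63). Sult1a1, the main phenol sulfotransferase and the most abundant of the family here, stood at 21.03 and 16.6 FPKM, 1.27-fold lower (1.099 to 1.46). Sult1b1, which sulfates thyroid hormones and phenols, went the other way at a very low level, with 0.559 FPKM from 22 reads and 1.69 FPKM from 64 reads (3.02-fold, 1.84 to 5.15). Its log2 difference of 0.79 with the pseudocount kept it out of the higher calls. Sult1c2 stood at 0.767 and 0.399 FPKM, from 26 and 13 reads, with an interval that includes equal levels (0.245 to 1.05).

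The promoters of Sult1d1, which was lower, and of Ugt2a3, which barely differed, are shown because both lie in the chromosome 5 cluster and both hold the HNF1 core GTTAAT. They cover 250 bases before to 50 bases after the transcription start, from RefSeq (GRCm38.p6), 5′ to 3′ on the strand of the gene. Sult1d1 lies at chr5:87568957-87569256 and Ugt2a3 at chr5:87337146-87337445, both on the minus strand. Capitals mark matches to GTTAAT or to the Ahr core GCGTG on either strand.
Sult1d1: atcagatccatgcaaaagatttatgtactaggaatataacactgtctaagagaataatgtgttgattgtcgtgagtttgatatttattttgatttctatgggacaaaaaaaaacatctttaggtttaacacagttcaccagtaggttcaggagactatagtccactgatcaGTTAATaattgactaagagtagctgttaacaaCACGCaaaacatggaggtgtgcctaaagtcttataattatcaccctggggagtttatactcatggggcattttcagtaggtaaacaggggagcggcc
Ugt2a3: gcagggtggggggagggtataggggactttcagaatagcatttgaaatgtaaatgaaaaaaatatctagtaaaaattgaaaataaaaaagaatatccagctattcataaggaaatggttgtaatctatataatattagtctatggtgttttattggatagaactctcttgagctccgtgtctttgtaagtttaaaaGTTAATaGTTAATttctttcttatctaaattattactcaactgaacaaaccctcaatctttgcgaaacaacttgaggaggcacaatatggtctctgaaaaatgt
In Sult1d1, GTTAAT begins 79 bases before the start and GCGTG, read on the other strand, lies 47 to 43 bases before it. Ugt2a3 has 2 copies of GTTAAT, which begin 54 and 47 bases before the start. Among 32 members with a promoter in the table, 5 hold GTTAAT (Gsta3, Sult1a1, Sult1d1, Ugt1a1 and Ugt2a3), beside 7.10% of all 32851 promoters, and 1 of them is among the lower members. GCGTG occurs in 8 members, beside 32.4% of promoters. The antioxidant response core TGACNNNGC occurs in 4 (Gsta3, Gstm5, Gstm7 and Mgst1), beside 12.4%, and none of those 4 was called either way. In Gstm5 a GCGTG match overlaps TGACNNNGC, and in the sequences printed no match overlaps another.

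Glutathione transferases join glutathione to electrophiles. Of 17 members, cytosolic and membrane-bound together, 1 (5.88%) was at least 2-fold higher and 1 (5.88%) lower, beside 5.35% and 8.31% of all compared genes. Within 1.5-fold lay 13, beside 64.5% of all compared genes. The summed FPKM of the 17 was 3247 in β-Gal and 3306 in HuR. Both alpha-class members were above their control value. Gsta3, which clears the epoxide of aflatoxin in mice, stood at 213 FPKM (5760 reads) and 345 FPKM (8964 reads), 1.62-fold higher (1.56 to 1.67), and Gsta4, which removes the lipid peroxidation product 4-hydroxynonenal, at 82.7 and 103 FPKM (1.25-fold, 1.16 to 1.34). The interval of Gsta3 lies well above equal levels but below 2-fold.

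The mu class was even. All 7 members lay within 1.5-fold, beside 64.5% of all compared genes, and log2 differences ran from -0.29 to 0.26. Gstm1, the most abundant of the 39 genes, stood at 1563 and 1657 FPKM (1.06-fold, 1.04 to 1.08) and took 0.141% and 0.149% of reads. Gstm3 had the lowest ratio of the class, at 141 and 115 FPKM (0.815-fold, 0.775 to 0.858), and Gstm6 the highest, at 61.8 and 74.02 FPKM (1.20-fold, 1.101 to 1.30). Gstm4 was equal in both, at 39.6 and 39.5 FPKM. Gstm2 stood at 77.9 and 71.6 FPKM, Gstm5 at 21.1 and 25.04 FPKM, and Gstm7 at 9.24 and 8.23 FPKM. Coding sequences of the 7 genes are 64 to 85.2% identical in pairs, and Gstm3 shared 13.8% of its 100-base stretches with other genes, the largest share in the class.

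Among the other cytosolic and mitochondrial classes, the pi-class and theta-class genes differed most. Gstp1, the pi-class enzyme, stood at 8.78 FPKM (122 reads) in β-Gal and 21.1 FPKM (282 reads) in HuR, 2.40-fold higher (1.93 to 2.99), the only member called higher. A share of 25.1% of its 100-base stretches also occurs in other genes, chiefly its neighbour Gstp2, which stood at 0.283 and 0.22 FPKM. Gstt3 stood at 6.36 FPKM (107 reads) and 2.16 FPKM (35 reads), 2.94-fold lower (1.99 to 4.44). Of its 100-base stretches, 10.8% also occur in Gm20441, which overlaps 13.6% of the exon bases of Gstt3 on the same strand. Gstt2, just short of the threshold at a log2 difference of -0.99, stood at 7.16 and 3.10 FPKM, 2.31-fold lower (1.70 to 3.18). Gstt1, the abundant theta-class enzyme known for acting on halogenated methanes, stood at 96.5 and 99.1 FPKM (1.03-fold, 0.956 to 1.103). Low and high members of the theta class thus differed, as the low pair was below control and the high one was not. Gsto1, an omega-class enzyme with thioltransferase activity, stood at 158 and 198 FPKM (1.25-fold, 1.19 to 1.32), and Gstk1, found in mitochondria and peroxisomes, at 15.8 and 18.96 FPKM (1.20-fold, 1.018 to 1.41).

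The promoter of Gstp1 is shown as that of the member called higher. It lies on the minus strand at chr19:4037863-4038162 and covers the same window from RefSeq (GRCm38.p6), with a match to GCGTG in capitals.
Gstp1: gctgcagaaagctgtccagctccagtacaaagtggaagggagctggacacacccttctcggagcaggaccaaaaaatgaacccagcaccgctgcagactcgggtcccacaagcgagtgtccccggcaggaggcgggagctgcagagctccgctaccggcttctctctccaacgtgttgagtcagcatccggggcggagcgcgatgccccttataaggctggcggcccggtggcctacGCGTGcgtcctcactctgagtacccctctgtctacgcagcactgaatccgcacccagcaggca
The match begins 13 bases before the start. Neither TGACNNNGC nor GTTAAT occurs in this window. Only matches to these exact letters were counted, so variants such as TGAGTCAGC, which lies in the window, were not.

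The microsomal transferases went opposite ways. Mgst1, an abundant enzyme of the endoplasmic reticulum and outer mitochondrial membrane, stood at 725 FPKM (10429 reads) and 501 FPKM (6936 reads), 1.45-fold lower (1.40 to 1.49). Mgst3, which can also make leukotriene C4, stood at 18.97 and 24.1 FPKM (1.27-fold, 1.11 to 1.46).

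The oxidising enzymes Fmo1, Fmo5 and Aox3 were all lower. Flavin monooxygenases add oxygen to nitrogen and sulfur atoms of drugs. Both members were at least 2-fold lower, beside 8.31% of all compared genes. Fmo1 stood at 11.7 FPKM (315 reads) and 4.45 FPKM (115 reads), 2.64-fold lower (2.12 to 3.29), and Fmo5 at 9.88 FPKM (424 reads) and 4.09 FPKM (169 reads), 2.42-fold lower (2.02 to 2.90). Aox3, a molybdenum-containing aldehyde oxidase of mouse liver, was low in both libraries, at 3.06 FPKM (102 reads) and 0.967 FPKM (31 reads), 3.17-fold lower (2.10 to 4.90). Lung markers, which were also lower in the HuR library (2 of 3 compared, with a sum of 32.6 and 0.175 FPKM over 5 and Scgb1a1 and Scgb3a2 at 0 in HuR), moved the same way, and their part in these values was not tested.

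The epoxide hydrolases add water to epoxides. Ephx1, the membrane-bound enzyme that acts on foreign epoxides, was the second most abundant member and equal in both libraries, at 976 FPKM (21123 reads) and 985 FPKM (20524 reads), a ratio of 1.01 (0.99 to 1.03). Ephx2, the soluble enzyme that acts on epoxides of fatty acids, stood at 39.9 and 24.4 FPKM, 1.63-fold lower (1.502 to 1.78). The methyltransferase Nnmt, which methylates nicotinamide, stood at 60.1 and 35.03 FPKM, 1.71-fold lower (1.53 to 1.92). Tpmt, which inactivates thiopurine drugs, stood at 7.60 and 6.97 FPKM, a difference within counting error (0.917-fold, 0.692 to 1.21).

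Carboxylesterases split ester drugs and stored lipids. All 4 members lay within 1.5-fold, beside 64.5% of all compared genes. Ces1d, a triacylglycerol hydrolase in mice, stood at 92.5 and 90.6 FPKM (0.98-fold, 0.909 to 1.06), and Ces2a at 86.8 and 103 FPKM (1.19-fold, 1.12 to 1.26). Ces1f was 1.41-fold higher (1.21 to 1.66), at 19.9 and 28.2 FPKM, and Ces1e stood at 6.71 and 5.27 FPKM (0.785-fold, 0.628 to 0.978).

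**Figure D2:**
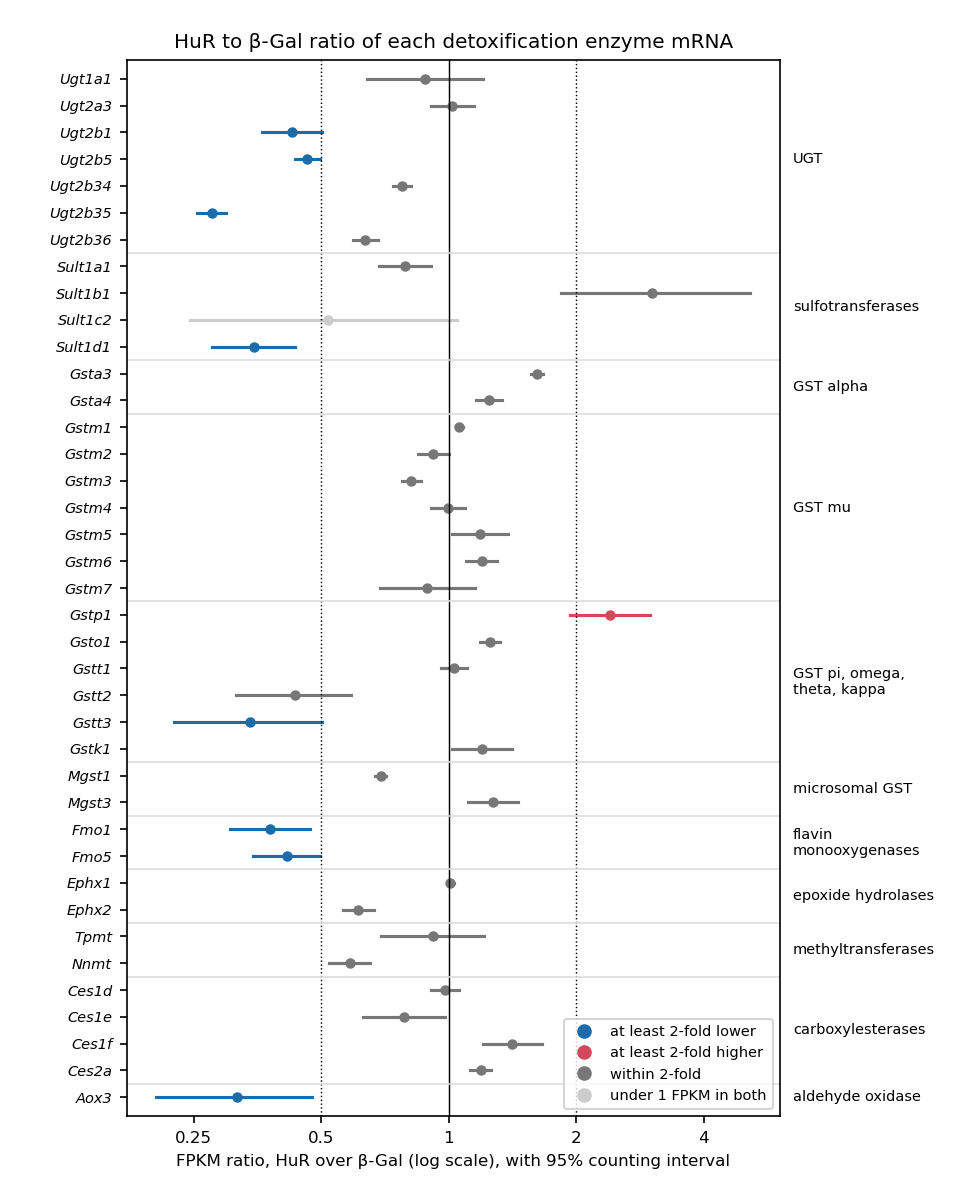
Ratio of FPKM in the HuR library to FPKM in the β-Gal library for each of the 39 genes (log scale), with 95% counting intervals as bars and 2-fold in either direction as dotted lines. Blue marks the 8 genes called lower on the log2 scale with the pseudocount, red Gstp1, and light grey Sult1c2, which was under 1 FPKM in both libraries.

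The counting intervals set how far single ratios can be read. Among the 38 compared members, the interval lay below equal levels for 18, above for 12 and included them for 8. It lay wholly beyond 2-fold for 6 of the 8 lower members, with Ugt2b1 and Gstt3 as the exceptions, and not for Gstp1. Reads per member and library ran from 13 to 26329.

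Related genes that lie side by side did not share one difference. On chromosome 5, between 86889767 and 87591594 (GRCm38), 10 Ugt2 and Sult1 genes were compared. Of these, 4 were at least 2-fold lower and 0 higher, beside 8.31% and 5.35% of all compared genes. The genes called lower were not a single block, since Ugt2b36 lies between Ugt2b35 and Ugt2b5, and Ugt2a3 and Ugt2b38 lie between Ugt2b5 and Sult1d1. This holds for the calls only, as Ugt2b36 and Ugt2b38 were themselves 1.57-fold and 2.01-fold lower. The pseudocount kept Ugt2b38 out of the call. Sult1b1, above its control value, directly precedes Sult1d1, below it.

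On chromosome 10, from 75774115 to 75837424, Gstt1 lies between Gstt3 and Gstt2, and was level while its neighbours were 2.94-fold and 2.31-fold lower. On chromosome 3, from 107895821 to 108044894, all 7 Gstm genes lay within 1.5-fold.

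Of the carboxylesterase clusters of chromosome 8, that of the Ces2 and Ces3 genes held 2 genes called higher, neither of them a member. They were 2 of 7 compared, beside 5.35% of all compared genes. Ces2a, at 1.19-fold, begins a row in which Ces2e, an ester hydrolase that is not a member, stood at 44.98 FPKM (1943 reads) and 222 FPKM (9228 reads), 4.93-fold higher (4.70 to 5.18). Between them Ces2b stood at 0.0408 FPKM from 2 reads and 2.10 FPKM from 99 reads (51.4-fold, 13.9 to 431), and Ces2c at 41.2 and 74.9 FPKM (1.82-fold, 1.65 to 1.999). Coding sequences of Ces2a and Ces2e are 83.3% identical, but Ces2e shared 0 of its 100-base stretches with another gene. Of the Ces1 cluster 7 genes were compared, with 0 called either way, among them the abundant Ces1c at 767 and 832 FPKM. Aox3 lies next to Aox1, another aldehyde oxidase, which stood at 11.6 and 10.1 FPKM.

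**Figure D3:**
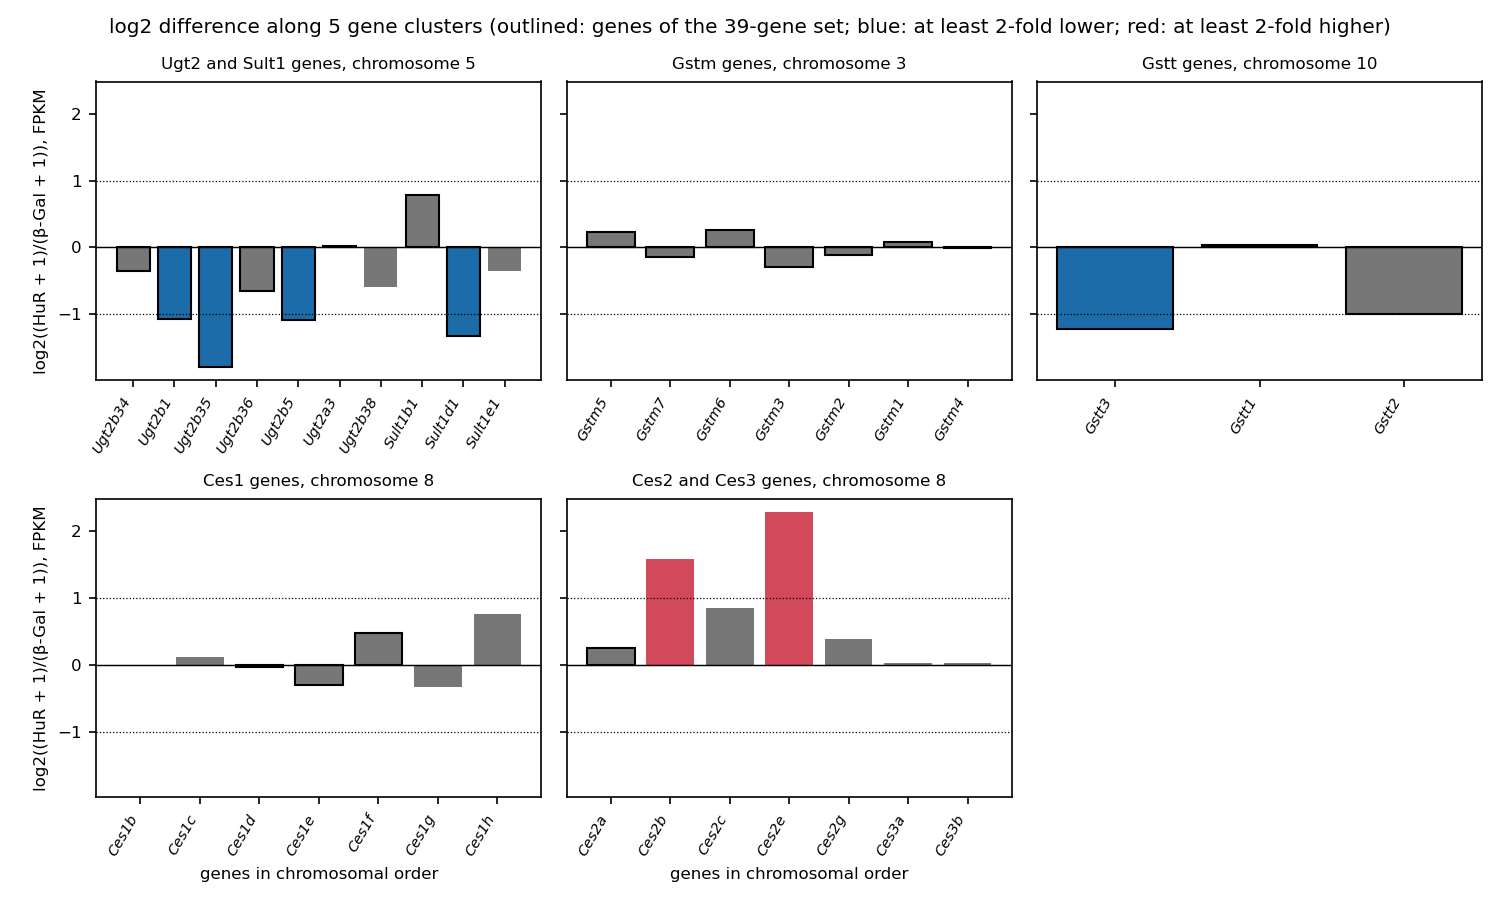
Log2 difference, log2((HuR + 1)/(β-Gal + 1)) of FPKM, for the compared genes of 5 clusters in chromosomal order, 1 library per group. Blue bars are at least 2-fold lower, red bars at least 2-fold higher, and black outlines mark genes among the 39. Ces2b and Ces2e stand above 1, beside neighbours that do not, and the Gstm genes stay between -0.29 and 0.26.

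Transcript composition moved with these values. Over 12678 compared genes with an annotated transcript, the log2 difference had a Spearman correlation of 0.33 with GC content and -0.31 with mean transcript length, and over the 38 members 0.31 and -0.42. Genes within a library share its preparation, so these correlations describe the 2 libraries only. Of 22 members with GC content below the median of all genes (50.3%), 7 were at least 2-fold lower, beside 12.3% of all genes below it. Of 16 members above it, 1 was lower (Gstt3), beside 4.29% of genes. Median log2 differences below and above that GC content were -0.34 and 0.03 for the members, and -0.34 and 0.00441 for all genes. By length, 5 of 10 members at or above the median of 1567 bases were lower, beside 10.9% of genes, and 3 of 28 shorter ones were, beside 5.67%. With the GC trend over all genes removed and the median kept, 5 members and 926 genes were lower. Ugt2b35, Sult1d1, Gstt3 and Fmo1 kept their call, Ugt2b1, Ugt2b5, Fmo5 and Aox3 lost it, and Gstt2 was called in addition. Once the differences were also centred, 2 members (Ugt2b35 and Gstt3) and 529 genes were lower. The part of GC content and length in the differences beyond this was not tested.

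**Figure D4:**
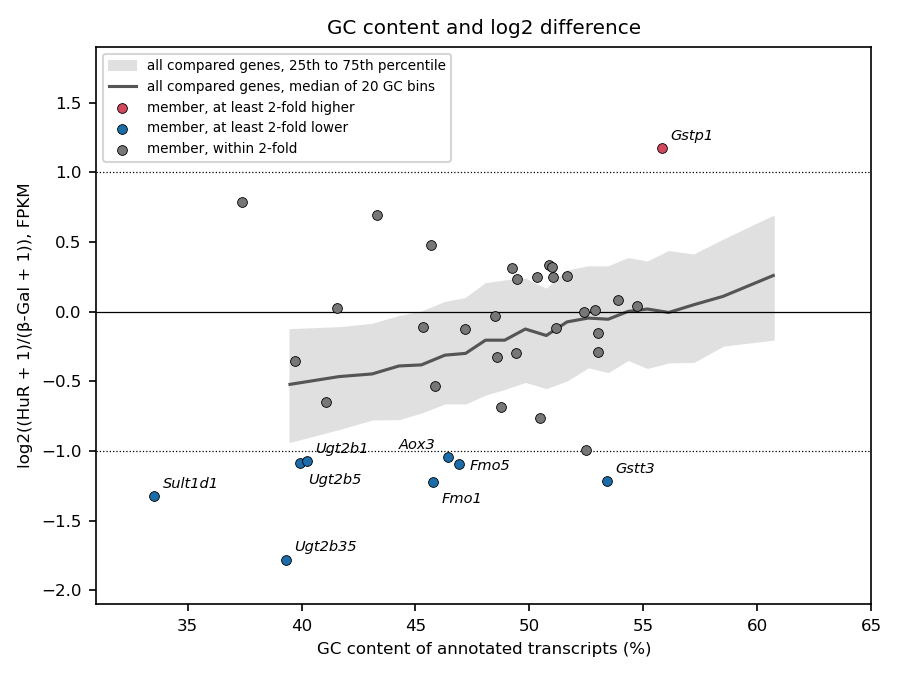
Log2 difference against the GC content of annotated transcripts (percent). Points are the 38 compared members, the line is the median of all compared genes in 20 bins of GC content, and the grey band spans their 25th to 75th percentile. Of the 8 lower members, 7 lie to the left of 50.3% GC, and Ugt2b35 and Sult1d1 lie lowest.

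The pathway holds further enzymes, supply genes, transporters and regulators. Of 109 such genes in 9 lists, 100 were listed and 83 compared, of which 6 (7.23%) were at least 2-fold lower and 2 (2.41%) higher, beside 8.31% and 5.35% of all genes, with a median log2 difference of -0.34. The 2 higher genes were Ces2e and Ces2b. At a pseudocount of 0.1 FPKM, 12 of these genes were lower, and 1762 of all genes in place of 1072.

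Other glucuronosyltransferases were below their control value in all 7 cases compared, beside 60.7% of all genes, with 0 called lower and a median of -0.55. Ugt1a5 stood at 5.56 and 2.34 FPKM (2.38-fold lower, 1.86 to 3.07) and Ugt1a9 at 14.6 and 8.60 FPKM. Ugt2b38 stood at 2.05 and 1.017 FPKM (2.01-fold lower, 1.32 to 3.12) and Ugt1a6b at 2.87 and 1.64 FPKM. The pseudocount kept Ugt1a5 and Ugt2b38 out of the lower calls. The Ugt1a values carry the same doubt as Ugt1a1, through shared exons. Other sulfotransferases were below control in 6 of 6, again with 0 called lower, and the counting intervals of Sult1e1, Sult2a1 and Sult5a1 included equal levels. Sult2a8, a liver sulfotransferase, stood at 8.18 and 3.95 FPKM (2.07-fold lower, 1.66 to 2.60). Sult3a1 stood at 1.04 and 0.27 FPKM, from 20 and 5 reads (3.85-fold lower, 1.40 to 13.1). The estrogen sulfotransferase Sult1e1 stood at 3.73 and 2.69 FPKM and Sult2a1 at 3.20 and 2.33 FPKM. The members of these families did not all share that side, since Sult1b1 was above its control value. Ugt2a3 barely differed (1.0199-fold, 0.909 to 1.14). Of the other glutathione transferases 4 were compared and 0 called. Gsta1 stood at 323 and 420 FPKM and Gsta2 at 149 and 171 FPKM, both above control like Gsta3 and Gsta4, while Gstcd stood at 14.02 and 8.11 FPKM and Gstz1 at 26.9 and 26.6 FPKM. Among the remaining oxidases, xanthine dehydrogenase Xdh stood at 48.3 and 24.9 FPKM, 1.94-fold lower (1.77 to 2.12). The flavin monooxygenases Fmo4 and Fmo2 were below control like Fmo1, at 6.82 and 3.79 FPKM and at 1.82 and 0.768 FPKM. Ces1h, the last carboxylesterase of its cluster, stood at 0.582 and 1.66 FPKM.

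Of 15 genes that supply cosubstrates, 1 (6.67%) was at least 2-fold lower and 0 higher, beside 8.31% and 5.35% of all compared genes. Within 1.5-fold lay 12, beside 64.5% of all compared genes. The lower gene was Slc26a1, a sulfate transporter of hepatocytes, at 45.7 and 12.7 FPKM, 3.61-fold lower (3.30 to 3.94). Papss2, which makes the sulfate donor PAPS, stood at 21.9 and 11.8 FPKM, and Mat1a, which makes the methyl donor S-adenosylmethionine, at 57.6 and 31.3 FPKM. Slc35d1, which brings UDP-glucuronic acid into the endoplasmic reticulum, stood at 29.8 and 19.97 FPKM. The list went both ways, with 11 genes below control and 4 above. Papss1, which also makes PAPS, stood at 9.64 and 9.31 FPKM (0.965-fold, 0.828 to 1.12), and Por, which passes electrons to cytochromes P450, at 498 and 701 FPKM (1.41-fold, 1.37 to 1.44). Among conjugation by methyl, acetyl and amino acid groups, 1 of 10 (10%) was lower, beside 8.31% of all compared genes. It was the bile acid conjugating enzyme Baat, at 12.6 and 2.86 FPKM. Hnmt stood at 2.82 and 1.51 FPKM, Acsm3 at 1.58 and 0.707 FPKM, and Inmt at 13.4 and 9.70 FPKM.

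Of 14 transporters, 1 (7.14%) was lower and 0 higher, beside 8.31% and 5.35% of all compared genes. Abcg2, which exports sulfate conjugates, stood at 57.6 and 25.5 FPKM, 2.26-fold lower (2.05 to 2.49). Abcc2, the main canalicular exporter of glucuronide and glutathione conjugates, stood at 103 and 51.5 FPKM, 1.99-fold lower (1.89 to 2.10). Abcc6 stood at 15.04 and 8.24 FPKM and Abcc4 at 11.9 and 7.16 FPKM. Among 12 regulators, 3 (25%) were lower and 0 higher, beside 8.31% and 5.35% of all compared genes. The lower ones were Ppara at 6.26 and 1.73 FPKM, Nr1i2 at 9.94 and 3.19 FPKM and Ahr at 22.6 and 8.44 FPKM, all receptors that induce enzymes of these families. Of the 12, 9 lay below their control value, beside 60.7% of all compared genes, and 3 lay above it. Keap1, which restrains NRF2, stood at 37.5 and 23.5 FPKM, 1.60-fold lower (1.48 to 1.73).

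**Figure D5:**
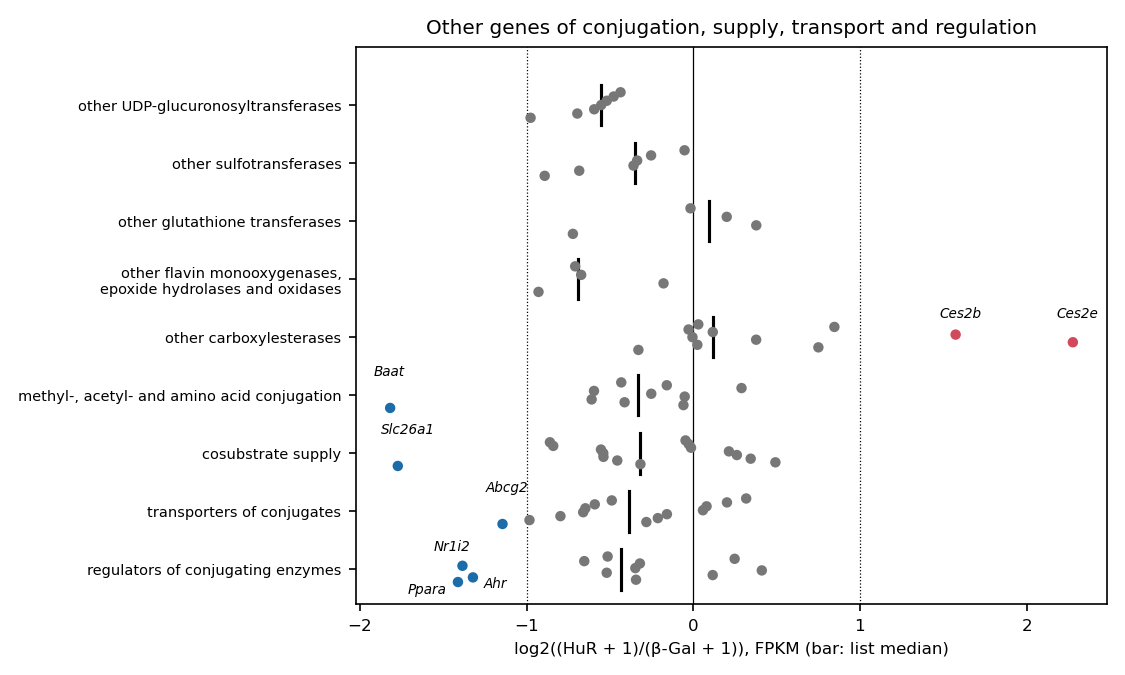
Log2 difference of the 83 compared genes in 9 lists of other conjugating enzymes, supply genes, transporters and regulators. Each point is a gene, black bars are list medians, and dotted lines mark 2-fold. The 6 lower genes (blue) are Baat, Slc26a1, Abcg2, Nr1i2, Ahr and Ppara, and the 2 higher (red) are Ces2b and Ces2e.

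Markers of other cell types also differed between the libraries. Of all compared genes, 8.31% were lower and 5.35% higher by the same rule. Intestinal markers were lower in HuR in 10 of 11 compared, with a sum over 13 genes of 137 and 24.3 FPKM and Cdx1 at 0 in HuR. The members were not sorted by expression in intestine, so none is set beside these markers. Stellate and fibroblast markers were lower in 5 of 5 compared, with a sum of 12.9 and 1.69 FPKM and Lrat at 0 in HuR. Kupffer cell and macrophage markers, higher like Gstp1, were called higher in 4 of 7, with a sum of 60.3 and 137 FPKM and none at 0. Endothelial markers were higher in 2 of 5 (20.4 and 39.2 FPKM, Clec4g at 0 in HuR). Of 6 cholangiocyte markers 1 was higher and 2 were lower (70.01 and 84.2 FPKM). The part of these cells in the enzyme values was not tested.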

How the data were processed

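RNA-seq was measured in 2 libraries of cultured hepatocytes, 1 infected with β-Gal virus and 1 with HuR virus, grouped by the overexpression label. Each library has a deposited file of FPKM values by gene, as the authors made them. Per the submitters' processing notes, TopHat2, HTSeq 0.6.1 and the build GRCm38 were involved, with no role stated. For the library kit, strand setting, annotation release and filters the entry is "not given in the sources used here", so antisense partners and near copies cannot be separated. The tables hold no gene at 0 with β-Gal and 2233 at 0 with HuR, so genes found only in HuR cannot be called higher.

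Identifiers were matched to GENCODE M21 (GRCm38), which named 20133 of 20505 genes. FPKM values moved in steps of whole reads (within 0.02 of a whole read for 73.3% of genes with a length), which gave the library totals; for 9 of the 39 members a transcript length other than the annotated mean was inferred from both values. That step returned the known reads for 98.1% of 691 genes checked. In a 2 kb transcript 1 read is worth 0.0272 FPKM for the control and 0.0283 FPKM for HuR. A gene was compared if 1 of its values reached 1 FPKM, and the pseudocount was 1 FPKM. Named genes are all members past 2-fold, the most abundant and most different members of each family, and up to 4 genes with the largest difference of each pathway list; further members, and Sult5a1, Papss1, Por and Ces1c, were given after their values were seen. Members and lists were chosen with earlier results of these data known, and 1 gene of the pathway lists is not reported here. Near copies were measured as the share of a gene's 100-base stretches, over all its GENCODE transcripts, found in another gene. Coding sequences stood in for proteins, and promoters were from RefSeq. The 3′ UTR was taken from 1 transcript per gene, that with the longest coding sequence. Read recovery, intervals and calls were tested on simulated data. Python 3.11.15, pandas 2.3.3, SciPy 1.17.1, statsmodels 0.14.6 and Biopython 1.88 were used. Alternatives were the pseudocount, the filter, the centring and scaling, removal of GC and length trends (lowess, span 0.3), and leaving out near copies.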

Additional observations from a re-analysis of the deposited data

How the results depend on the processing

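No paired analysis was possible because each group has 1 library, and for the same reason no replicate could be left out. The 8 lower members became 9 at a pseudocount of 0.1 FPKM, 2 at 5 FPKM and 4 after centring on the median of all genes, while the 1072 lower genes overall became 1762, 330 and 660. The single higher member became 2 and 0 at those pseudocounts. Centring also reversed the median log2 difference of the members, from -0.12 to 0.0437. Alternatives added after the data were seen removed trends or near copies. With the GC trend removed, 5 members were lower and 2 higher with the median kept, and 2 lower and 3 higher with it set to 0, where the members' median was 0.0628. With GC and length trends removed the counts were 6 lower and 1 higher (Sult1b1 in place of Gstp1, median -0.26), the lower ones being Ugt2b35, Sult1d1, Gstt3 and Fmo1 with Gstt2 and Nnmt newly called, and 3 lower and 2 higher once centred. Ugt2b35 and Gstt3 stayed lower under every trend removal, and Gstt3 left the call only at a pseudocount of 5 FPKM. Without the 3 members that share 20% or more of their stretches (Ugt1a1, Ugt2b5 and Gstp1), 7 were lower and 0 higher. Among pathway genes, 12 were lower at a pseudocount of 0.1 FPKM, and 1 was higher at 5 FPKM; 4 were higher with GC and length trends removed and centred. The cause was not tested. No filter on low values, a filter of 5 FPKM and rescaling to TPM left the calls as they were except that Gstt2 joined the lower members after rescaling and Aox3 was under the filter of 5 FPKM. Depth limits Ugt1a1, Sult1b1, Sult1c2, Aox3 and Gstt3, with at most 107 reads in each library. Gstt2, Tpmt and Sult1d1 were under that number in HuR alone, with 60, 98 and 105 reads.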
